A study of Homo sapiens with 6 samples.

Results

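RNA sequencing of HepG2, a line of human liver cancer cells kept in culture, left 50 genes with no count in any control siRNA library and at least 5 counts in every FTO siRNA library. In all, 53 of the 60483 genes in the deposited tables met these counts, which is 0.159% of the 33314 genes at 0 in every control library. CC and CXC chemokine genes were taken out by symbol. They were CCL2 with 18, 20 and 28 counts in FTO siRNA 1, 2 and 3, CCL3L1 with 10, 7 and 20, and PPBP with 9, 6 and 11. The 50 genes were chosen by their raw counts in all 6 libraries, so their levels are a description and no test of them is given. The 50 comprised 38 protein-coding genes, 5 immunoglobulin constant-region genes, 2 T cell receptor constant-region genes, 1 T cell receptor variable gene, 2 long noncoding RNAs and 2 processed pseudogenes.

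The series compared cells given a control siRNA with cells given an siRNA against FTO, with 3 libraries in each group. All were HepG2 of passages 16 to 19, grown in RPMI-1640 with fetal bovine serum, and no other agent or genotype is named in the labels. FTO removes a methyl mark, N6-methyladenosine, from RNA. Library totals ran from 15713279 to 18390953 counts, and the libraries of each group were not said to come from separate cultures, so the p-values below measure a spread that may be technical. FTO itself (ENSG00000140718.17, chromosome 16) had 644, 623 and 642 counts in controls 1, 2 and 3. After FTO siRNA it had 181, 234 and 102 counts. It fell by 1.93 ± 0.32 (SE) in log2 CPM (Benjamini-Hochberg adjusted p = 0.00932 in the quasi-likelihood test of edgeR), and it was lower in each FTO siRNA library than in every control. The labelled cell type was checked: all 20 genes of a hepatocyte list were counted in every library, and AFP, the fetal liver protein, had between 115999 and 215234 counts.

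Antibodies are made by B cells and plasma cells, which join a variable segment to a constant region of a heavy chain and of a kappa or lambda light chain. T cells build their receptor in the same way and pass its signal on through the CD3 chains and the kinase LCK. Cytotoxic T cells and natural killer cells store proteases, the granzymes, in granules held together by the proteoglycan serglycin, the product of SRGN. Liver cells are not known for any of these programmes.

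The genes were placed in 6 groups by what they are known for, after their values had been seen. Those of blood and immune cells numbered 24: 6 antibody genes, 5 of the T cell receptor and its signalling, 4 of cytotoxic granules and 9 other genes of white blood cells. They held 61.6% of the counts of the 50 genes over the FTO siRNA libraries. Another 22 protein-coding genes are known from other or from several tissues, and 4 were noncoding genes or pseudogenes. By marker lists alone, 17 of the 50 were in a list of blood or immune cells, 1 in a list of another tissue, none in a list of a cytokine, interferon, NF-kB or immediate early response, and 32 in no list. In bulk RNA, a change in the number of cells of a type and a change in RNA per cell cannot be told apart.

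**Figure D1:**
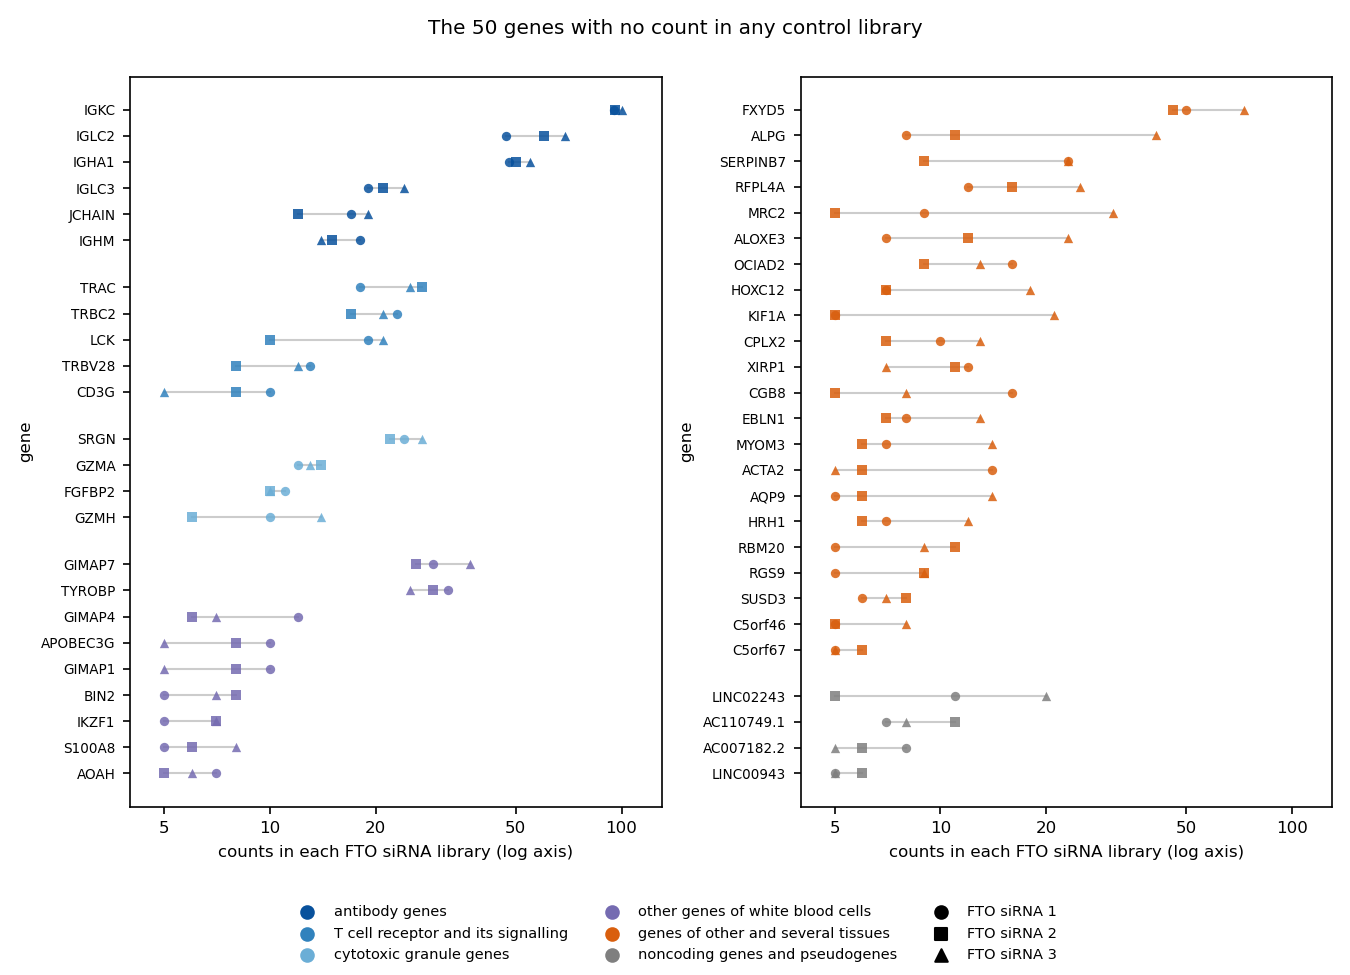
Counts of the 50 genes in FTO siRNA 1 (circles), 2 (squares) and 3 (triangles) on a log axis, by group. All were at 0 in every control library; the 3 symbols of IGKC lie close together at 95, 96 and 100 counts, whereas those of MRC2 spread from 5 to 31.

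Levels were low. Totals over the FTO siRNA libraries ran from 16 to 291 counts with a median of 30.5, and 7 of the 50 genes had 20 or more counts in each library. A count of 0 leaves a level of up to 3 counts possible, so folds are given as bounds over 3 counts per control library, a mean of 0.184 CPM (counts scaled to library size, with TMM factors). These bounds cover counting error only and ran from at least 1.69-fold to at least 30.5-fold, with a median of 3.15. In the test across all genes 15 of the 50 had enough counts to be tested and all 15 were called higher, against 7.53% of all 15025 genes tested. Nothing is read from that count, since the selection used the same contrast.

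Promoter sequences of RefSeq (GRCh38.p14, 250 bases before to 50 after a transcript start) are shown for 5 of these genes: a myeloid and natural killer cell adaptor (TYROBP), a granzyme (GZMA), a T cell kinase (LCK), the joining chain of antibodies (JCHAIN) and a member known from skin and kidney (SERPINB7). They are shown for the motif matches they hold. Capitals mark the motif matches named after them, and each window is written 5′ to 3′ on the strand of its gene.
TYROBP, chr19:35908246-35908545, minus strand: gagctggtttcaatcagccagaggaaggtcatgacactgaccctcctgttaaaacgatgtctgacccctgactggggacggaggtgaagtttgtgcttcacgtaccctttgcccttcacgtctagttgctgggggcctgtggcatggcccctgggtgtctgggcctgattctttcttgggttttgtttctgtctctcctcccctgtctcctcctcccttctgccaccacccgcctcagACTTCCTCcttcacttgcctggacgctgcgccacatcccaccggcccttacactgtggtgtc
GZMA, chr5:55102396-55102695, plus strand: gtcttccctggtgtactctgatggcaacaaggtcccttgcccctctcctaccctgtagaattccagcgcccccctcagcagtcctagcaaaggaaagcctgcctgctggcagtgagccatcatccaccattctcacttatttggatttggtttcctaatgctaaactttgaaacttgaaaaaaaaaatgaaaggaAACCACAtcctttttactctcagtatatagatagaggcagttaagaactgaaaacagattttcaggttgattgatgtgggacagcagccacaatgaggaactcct
LCK, chr1:32251015-32251314, plus strand: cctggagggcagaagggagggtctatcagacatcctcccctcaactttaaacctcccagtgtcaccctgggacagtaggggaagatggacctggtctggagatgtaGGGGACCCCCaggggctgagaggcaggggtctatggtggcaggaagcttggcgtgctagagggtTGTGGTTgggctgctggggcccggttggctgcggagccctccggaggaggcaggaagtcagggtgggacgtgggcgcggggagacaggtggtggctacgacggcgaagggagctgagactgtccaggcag
JCHAIN, chr4:70666459-70666758, minus strand: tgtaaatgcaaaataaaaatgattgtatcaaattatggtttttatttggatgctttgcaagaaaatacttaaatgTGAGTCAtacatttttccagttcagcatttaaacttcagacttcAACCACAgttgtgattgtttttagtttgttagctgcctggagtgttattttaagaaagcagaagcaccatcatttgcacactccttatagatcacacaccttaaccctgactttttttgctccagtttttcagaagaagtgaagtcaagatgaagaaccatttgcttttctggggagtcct
SERPINB7, chr18:63775168-63775467, plus strand: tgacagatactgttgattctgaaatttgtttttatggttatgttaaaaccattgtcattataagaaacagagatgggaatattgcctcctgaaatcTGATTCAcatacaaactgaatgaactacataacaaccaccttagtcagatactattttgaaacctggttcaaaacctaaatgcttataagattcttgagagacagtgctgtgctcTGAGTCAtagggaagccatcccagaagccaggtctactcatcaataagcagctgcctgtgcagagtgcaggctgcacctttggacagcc

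In the table, 33 of the 50 genes had a promoter window, 49 windows in all, and each motif was searched on both strands with any overlap allowed. The ETS and PU.1 motif GAGGAAGT, of factors that act in white blood cells, stood in 2.59% of all 35116 windows, among them TYROBP, GIMAP4 and another window of SERPINB7. The RUNX motif TGTGGTT stood in 4.27% of all windows, in those of GZMA, LCK and JCHAIN among 17 windows of the blood and immune groups, and in none of the 32 windows of the other members. The AP-1 motif TGANTCA, bound by FOS and JUN proteins, stood in 7.71% of all windows, in the JCHAIN window and in 6 windows of 4 other members (ALOXE3, HRH1, SERPINB7 and XIRP1). The consensus motif of NF-kB stood in 5.91% of all windows and in 1 window each of LCK and SERPINB7. The octamer ATTTGCAT, a motif of immunoglobulin promoters, stood in 1.77% of all windows and in none of the 49. Only 12 of the 24 blood and immune genes had a window. The immunoglobulin and T cell receptor segments had no window, so nothing is read from the absence of the octamer. These motifs were chosen with the data known, and a match describes letters in a window only.

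By group median, the antibody genes had the highest total (108.5 counts) and were the most even (1.22-fold between the highest and lowest CPM). This did not hold for each gene of the group. IGKC, the constant region of the kappa light chain (ENSG00000211592.5, chromosome 2), had 95, 96 and 100 counts in FTO siRNA 1, 2 and 3, or 5.63 ± 0.465 CPM (SD, n = 3), at least 30.5-fold above the control floor. IGHA1, the constant region of the heavy chain of IgA (ENSG00000211895.4, chromosome 14), had 48, 50 and 55 counts, at least 16.0-fold. The lambda constant-region gene IGLC2 (ENSG00000211677.2, chromosome 22) had 47, 60 and 69 counts, at least 18.3-fold. All 3 were counted in every FTO siRNA library at a similar level.

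Its neighbour IGLC3 had 19, 21 and 24 counts, at least 6.68-fold. IGLC2 and IGLC3 are near-copies, and 66.1% and 67.1% of the 50-base words of their transcripts occur in another gene, so the split of reads between them is uncertain. IGHM, the heavy chain of IgM, had 18, 15 and 14 counts, at least 4.97-fold. JCHAIN, which joins IgA and IgM into polymers and whose promoter is shown above, had 17, 12 and 19 counts, at least 4.99-fold. Kappa counts over lambda counts (7 IGLC genes) were 1.44, 1.19 and 1.06 in the 3 libraries.

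Together the 14 annotated immunoglobulin constant-region genes had 0, 0 and 2 counts in the controls and 247, 297 and 284 in the FTO siRNA libraries. The 140 variable-region genes showed no such step in summed counts, with 32, 28 and 37 in the controls and 33, 32 and 33 after FTO siRNA. Of these genes, however, 6 were counted in any control library and 20 in any FTO siRNA library. Among antibody genes that missed the selection, IGHA2 had no count in the controls and 7, 3 and 6 after FTO siRNA, and IGHG3 had 7, 3 and 7. IGHG1, of the main IgG subclass, had 0, 0 and 2 counts in the controls and 4, 41 and 5 after FTO siRNA, so that it was high in FTO siRNA 2 only. IGHG2, IGHE, IGLC1 and IGLL5 were at 0 in all 6 libraries.

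Genes of the T cell receptor formed the next group. TRAC, the constant region of the alpha chain (ENSG00000277734.3, chromosome 14), had 18, 27 and 25 counts, at least 7.32-fold above the floor. TRBC2, one of the constant regions of the beta chain (chromosome 7), had 23, 17 and 21 counts, at least 6.40-fold, while its near-copy TRBC1 was at 0 in all 6 libraries. TRBV28, a variable segment of the beta chain, had 13, 8 and 12 counts. All 3 were present in each FTO siRNA library and in none of the controls.

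LCK, the kinase next to the receptor, had 19, 10 and 21 counts, at least 5.17-fold. CD3G, a signalling chain of the receptor, had 10, 8 and 5. Over all annotated receptor segments, the 6 constant-region genes had no count in the controls and 52, 49 and 52 after FTO siRNA, and the 103 variable-region genes had 1, 1 and 5 in the controls and 38, 16 and 34 after FTO siRNA.

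Of 4 granule genes of cytotoxic cells, SRGN, GZMA and FGFBP2 had even counts. SRGN, the granule proteoglycan that many blood cells make, had 24, 22 and 27 counts, at least 7.62-fold above the floor, and was the most even of the 50 genes, with 1.09-fold between its highest and lowest CPM. GZMA, a granzyme of these cells, had 12, 14 and 13 counts, at least 4.10-fold. GZMH, another granzyme, had 10, 6 and 14, with 1.93-fold between its highest and lowest CPM.

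FGFBP2, a secreted product of cytotoxic lymphocytes, had 11, 10 and 10 counts. Of the other granzymes, GZMM had no count in the controls and 3, 10 and 13 after FTO siRNA, whereas GZMB had 3, 3 and 12 counts in the controls and 14, 9 and 19 after FTO siRNA and did not pass the test (log2 fold change 1.11 ± 0.55, edgeR quasi-likelihood test, adjusted p = 0.231).

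Another 9 genes are known from white blood cells. GIMAP7, a GTPase of lymphocytes (chromosome 7), had 29, 26 and 37 counts, at least 9.55-fold above the floor. TYROBP, the DAP12 adaptor of natural killer and myeloid receptors, had 32, 29 and 25 counts, at least 9.11-fold. Its partner HCST had none in the controls and 3, 7 and 5. TYROBP was the only gene among the 12 with the most counts to be lowest in FTO siRNA 3 by counts.

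GIMAP4 and GIMAP1, of the same gene cluster as GIMAP7, had 12, 6 and 7 counts and 10, 8 and 5 counts. The other cluster genes GIMAP2, GIMAP5, GIMAP6 and GIMAP8 held between 0 and 6 counts in any FTO siRNA library and at most 1 in a control. APOBEC3G, a cytidine deaminase that acts on retroviral DNA, had 10, 8 and 5 counts. BIN2, of blood cell membranes, had 5, 8 and 7, and AOAH, which inactivates bacterial lipopolysaccharide, had 7, 5 and 6.

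IKZF1, the lymphoid transcription factor Ikaros, had 5, 7 and 7 counts, just at the minimum. S100A8, a calcium-binding protein of neutrophils and monocytes, had 5, 6 and 8. Its binding partner S100A9 went the other way, with 74, 28 and 34 counts in the controls and 10, 6 and 26 after FTO siRNA, which did not pass the test (log2 fold change -1.81 ± 0.54, edgeR quasi-likelihood test, adjusted p = 0.0665). It was called lower with DESeq2 (adjusted p = 0.0128), without a filter (0.0398) and without FTO siRNA 3 (0.0124). Both genes are listed as monocyte markers, and they did not move together.

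The 22 protein-coding members known from other or several tissues are known from many organs. FXYD5, a regulator of the sodium pump found in epithelia, lymphocytes and tumour cells, had 50, 46 and 73 counts, at least 17.4-fold above the floor. It had the third highest total of the 50, and of the other FXYD genes, FXYD3 had 1, 0 and 0 counts in the controls and 0, 0 and 20 after FTO siRNA. ALPG, an alkaline phosphatase of placenta and germ cells (chromosome 2), had 8, 11 and 41 counts, at least 5.90-fold, so that FTO siRNA 3 held most of them. The intestinal ALPI, next to it in the family, was high in the same library, with 20, 22 and 14 counts in the controls and 18, 20 and 150 after FTO siRNA.

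SERPINB7, a protease inhibitor of skin and kidney, had 23, 9 and 23 counts, at least 5.69-fold. Of 9 other SERPINB genes looked at, SERPINB8 alone had counts in the controls, 51, 89 and 63, and it rose to 170, 131 and 237 (log2 fold change 1.30 ± 0.26, edgeR quasi-likelihood test, adjusted p = 0.0181); the call was lost on leaving out FTO siRNA 1, control 1 or control 3 (adjusted p up to 0.101). MRC2, a collagen receptor of fibroblasts, had 9, 5 and 31 counts, at least 4.42-fold, and its highest CPM was 5.12-fold above its lowest. ACTA2, smooth muscle actin, was the only member in a list of another tissue, with 14, 6 and 5 counts, at least 2.70-fold.

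Muscle was represented by XIRP1, an actin-binding protein, with 12, 11 and 7 counts, by MYOM3, of the sarcomere, with 7, 6 and 14, and by RBM20, a splicing factor of the heart, with 5, 11 and 9. Known from nerve cells were KIF1A, an axonal motor, with 5, 5 and 21 counts, CPLX2, a regulator of synaptic vesicles, with 10, 7 and 13, and RGS9, of retina and striatum, with 5, 9 and 9. ALOXE3, a lipoxygenase of the epidermis, had 7, 12 and 23 counts. Each of these 7 genes differed by 1.53-fold or more between libraries in CPM, where the median of the antibody genes was 1.22-fold. The antibody genes had more counts, with a median total of 108.5, and so less counting error, and IGHM among them differed by 1.56-fold. CD3G, GIMAP1 and APOBEC3G, with 23 counts each, differed by 2.43-fold, so the gap is not particular to these tissues.

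CGB8, a beta subunit of chorionic gonadotropin, had 16, 5 and 8 counts, but 82.8% of its 50-base words occur in other genes of its cluster, and the cluster as a whole is the safer unit. Its relatives CGB5 and CGB3 had 30, 21 and 14 and 25, 13 and 4 counts after FTO siRNA, with at most 1 in a control. RFPL4A, known from germ cells, had 12, 16 and 25 counts and 67.6% shared words. HOXC12, a homeobox gene, had 7, 7 and 18, and its cluster neighbours HOXC4, HOXC6, HOXC8, HOXC9 and HOXC10 were counted at 85 or more in every library. HOXC11 had 15, 4 and 6 counts in the controls and 12, 8 and 29 after FTO siRNA, and HOXC13 had 36, 32 and 27 and then 60, 40 and 71.

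The remaining protein-coding members were OCIAD2 with 16, 9 and 13 counts, EBLN1, a relic of a bornavirus gene, with 8, 7 and 13, AQP9, a glycerol channel of liver and white blood cells, with 5, 6 and 14, HRH1, a histamine receptor, with 7, 6 and 12, SUSD3 with 6, 8 and 7, C5orf46 with 5, 5 and 8 and C5orf67 with 5, 6 and 5. Among noncoding members LINC02243 had 11, 5 and 20 counts and LINC00943 5, 6 and 5. The pseudogenes AC110749.1 and AC007182.2 had 7, 11 and 8 and 8, 6 and 5 counts. Most of these genes sat near the minimum, and LINC02243 was the least even of them.

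Evenness over the FTO siRNA libraries differed between the blood and immune genes and the rest. Between the highest and the lowest FTO siRNA library the 24 blood and immune genes differed by a median of 1.42-fold in CPM and at most 2.43-fold, and 4 of them exceeded 2-fold. Over the other 26 genes the median was 1.94-fold and the maximum 5.12-fold, and 12 exceeded 2-fold. The highest CPM fell in FTO siRNA 3 for 3 of the 24 and for 14 of the 26, where all genes tested had it there at 42.3% and genes called higher outside the selection at 52.7%. The summed CPM of the 24 genes was 29.2 ± 1.80 (SD, n = 3) and that of the other 26 was 17.9 ± 3.63. These numbers describe the selected genes, and counting error is larger for genes with fewer counts. Across the whole transcriptome FTO siRNA 3 also stood apart. The chi-square of counts over its degrees of freedom was 118 against FTO siRNA 1 and 82.6 against FTO siRNA 2. It was 20.4 between FTO siRNA 1 and 2, and 8.45 to 15.4 between controls.

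**Figure D2:**
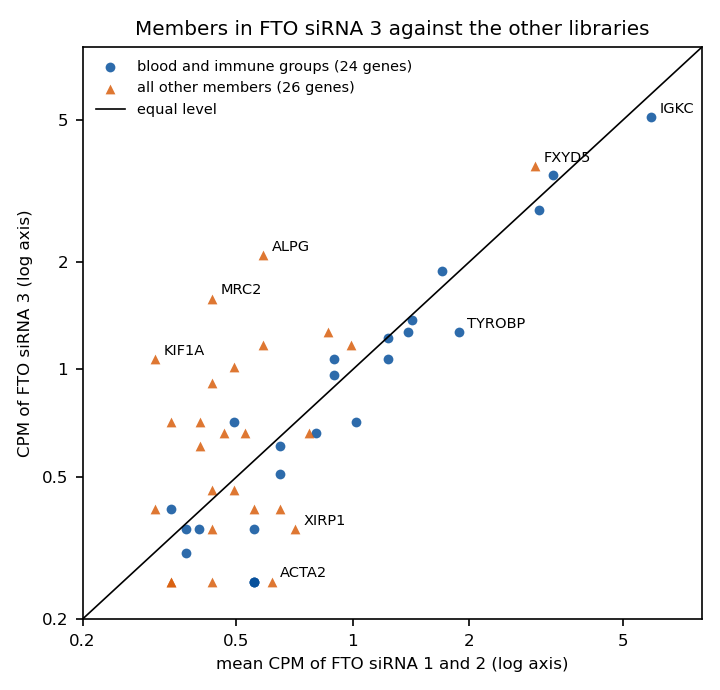
CPM of each of the 50 genes in FTO siRNA 3 against its mean CPM in FTO siRNA 1 and 2, both on log axes, with the line of equal level. Most of the 24 genes of the blood and immune groups (circles) lie near the line or under it, and GZMH lies above it. ALPG, MRC2 and KIF1A, of the other 26 (triangles), lie well above it.

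Within the 24 genes the makeup was similar in the 3 libraries. Antibody genes held 48.9%, 53.0% and 52.4% of their counts in FTO siRNA 1, 2 and 3. For the T cell receptor group the shares were 16.6%, 14.6% and 15.7%. Cytotoxic granule genes held 11.4%, 10.9% and 11.9%. SRGN, which many blood cells make, gave 24, 22 and 27 of the 57, 52 and 64 counts of this group. In FTO siRNA 1 the exact binomial 95% interval (Clopper-Pearson) of the antibody share ran from 44.4% to 53.4%, which covers the values of the other libraries. The 24 genes held 64.6%, 66.5% and 55.5% of the counts of all 50, the lowest share being in FTO siRNA 3.

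Genes at 0 in the controls were looked at next without a minimum of 5. Of 112 genes of the blood and immune lists at 0 in every control, 44 were counted in every FTO siRNA library, or 39.3%. For lists of other tissues this was 15 of 107 (14.0%), for all protein-coding genes 459 of 4077 (11.3%) and for all genes 672 of 33314 (2.02%). The opposite pattern, 0 in every FTO siRNA library and counted in every control, was found for 99 of 29033 genes (0.341%), for 0 of 27 genes of the blood and immune lists and for 0 of 39 of the other tissue lists. Members are among these genes, so the shares are a description.

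**Figure D3:**
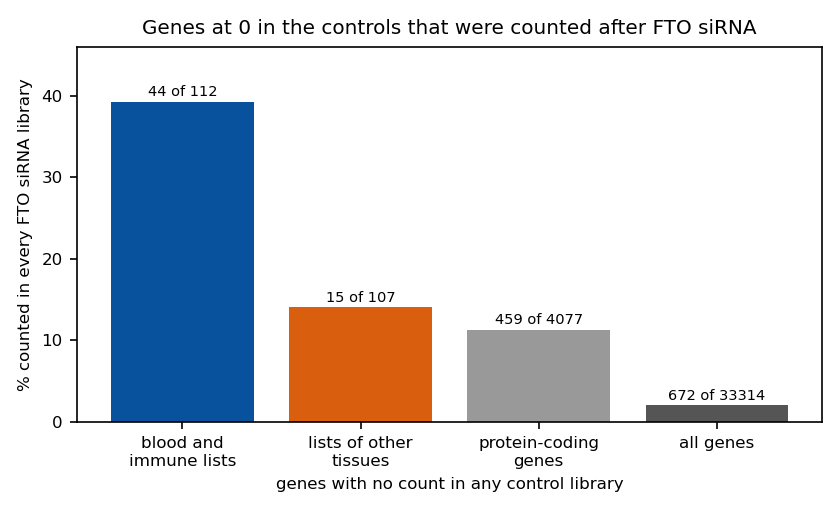
Share of genes with no count in any control library that were counted in every FTO siRNA library, for 4 sets of genes. The bar of the blood and immune lists stands at 39.3% (44 of 112 genes) and that of all genes at 2.02%.

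Blood and immune genes that the selection did not take were read from the test across all genes. Of 208 genes in these lists, 17 were members and 42 others had enough counts to be tested, of which 20 rose and 2 fell (median log2 fold change 1.39), a share of 47.6% higher beside 7.53% of all genes (3.83% of all genes fell). This share depended on the filter on low counts, which many of these genes passed through the FTO siRNA libraries alone. Of the 42, 18 had under 10 counts in every control (scaled to the median library total), and 16 of those 18 rose, so no support is drawn from them. Among the other 24 genes 4 rose, or 16.7%, beside 6.01% of all genes tested that had 10 counts or more in a control. Without a filter 24 of 164 rose (14.6%, beside 3.56% of all genes), and with DESeq2 23 of 74 (31.1%, beside 7.30%). By leaving out control 1 the count of 20 dropped to 11 (23.9%, beside 1.51% of all genes). Without control 2 it was 10 (21.7%, beside 1.84% of all genes). The lists were chosen with earlier results of these data known. Several genes named below had under 10 counts in every control, such as GNLY, CD3D, PTPRC and CCR7. For all such genes the calls and p-values are a description.

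From natural killer and cytotoxic cells, GNLY, which perforates microbial membranes, had 0, 1 and 0 counts in the controls and 43, 32 and 41 after FTO siRNA. It rose (ratio of summed counts per library total 109, 95% counting interval 19.2 to 4338, edgeR quasi-likelihood test, adjusted p = 0.00146). NKG7, of granule membranes, went from 2, 0 and 0 counts to 25, 17 and 18 (ratio 28.2, counting interval 7.46 to 238, edgeR adjusted p = 0.00634). KLRB1, a surface lectin, went from 2, 1 and 2 to 14, 19 and 14 (log2 fold change 3.06 ± 0.50, edgeR adjusted p = 0.00682). Of 6 tested genes in this list 5 rose, beside 7.53% of all genes. Without control 1 it was 2 of 7, and without control 2 also 2 of 7, beside 1.51% and 1.84% of all genes. The groups of these 3 genes did not overlap, but they were named for small p-values and the share over all genes was not counted. All 3 had under 10 counts in every control, so their calls are a description.

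Among T cell genes, CD3D went from 5, 4 and 6 counts to 68, 33 and 57 (log2 fold change 3.28 ± 0.43, edgeR adjusted p = 0.00425). CD247, the zeta chain of the receptor, went from 2, 1 and 1 to 21, 10 and 17 (3.38 ± 0.56, edgeR adjusted p = 0.00615). IL7R, the interleukin 7 receptor, went from 5, 2 and 5 to 30, 21 and 65 (3.12 ± 0.54, edgeR adjusted p = 0.0109). In this list 5 of 7 tested genes rose, beside 7.53% of all genes. The count was 2 without control 1 and 1 without control 2, beside 1.51% and 1.84% of all genes. Without a filter 4 of 28 rose (14.3%, beside 3.56% of all genes). CD3D, CD247 and IL7R had under 10 counts in every control, so their calls are a description. CD4 had no count in the controls and 2, 2 and 1 after FTO siRNA.

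Genes of all white blood cells gave 8 that rose and 1 that fell of 13 tested, beside 7.53% higher and 3.83% lower of all genes. Without a filter 6 of 17 rose (35.3%, beside 3.56% of all genes) and 1 fell. PTPRC, CD52 and LAPTM5 had under 10 counts in every control, so their calls are a description. PTPRC, the CD45 antigen, went from 0, 1 and 1 counts to 20, 20 and 20 (ratio 28.2, counting interval 7.46 to 238, edgeR adjusted p = 0.00192). CD52, a lymphocyte surface peptide, went from 0, 0 and 1 to 42, 27 and 27 (ratio 90.1, counting interval 15.8 to 3596, edgeR adjusted p = 0.00243), and LAPTM5, a lysosomal protein, from 1, 0 and 1 to 26, 14 and 27 (ratio 31.4, counting interval 8.37 to 265, edgeR adjusted p = 0.00217). ITGAL, an integrin of leukocytes, was counted well in the controls and fell, from 194, 182 and 105 to 57, 70 and 95 (log2 fold change -1.22 ± 0.29, edgeR adjusted p = 0.0306).

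Among the remaining lists, CD74, the class II invariant chain, went from 48, 45 and 49 counts to 271, 164 and 183 (log2 fold change 2.05 ± 0.28, edgeR adjusted p = 0.00471). CCR7, a homing receptor listed for dendritic cells and also found on T cells, went from 5, 4 and 4 to 27, 33 and 23 (2.56 ± 0.41, edgeR adjusted p = 0.00873). TUBB1, the tubulin of platelets, fell from 25, 34 and 37 to 5, 15 and 13 (-1.62 ± 0.39, edgeR adjusted p = 0.0327). With 1 library left out, calls were lost for IL7R, KLRB1 and CCR7 without control 1 or control 2, for CD247 without control 2, for ITGAL on leaving out FTO siRNA 1, FTO siRNA 2, control 1 or control 2, and for TUBB1 on leaving out any 1 control or FTO siRNA 1 (adjusted p up to 0.137).

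**Figure D4:**
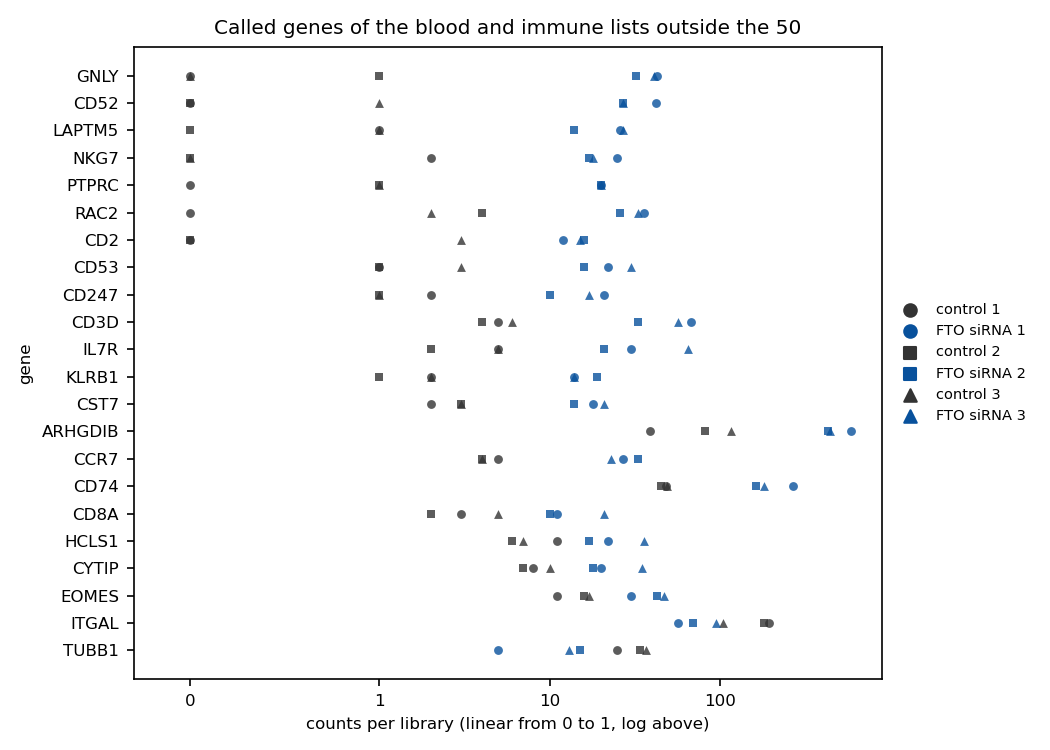
Counts per library of the 22 tested genes of the blood and immune lists that were called outside the selection, on an axis that is linear from 0 to 1 and logarithmic above. For 20 genes every FTO siRNA library (blue) lies right of the controls (dark grey), and ITGAL and TUBB1 lie left of them. The genes are shown because they were called, so this separation is a description. Of the 20, 16 had under 10 counts in every control.

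Other genes of B cells and plasma cells are given beside the antibody genes. MS4A1, the CD20 antigen, had no count in the controls and 1, 5 and 2 after FTO siRNA. BANK1 had 35, 59 and 57 counts in the controls and 61, 77 and 73 after FTO siRNA (log2 fold change 0.40 ± 0.26, edgeR adjusted p = 0.360). MZB1, a chaperone of plasma cells, had no count in the controls and 2, 4 and 3 after FTO siRNA. TNFRSF13C of the B cell list (-0.23 ± 0.35, edgeR adjusted p = 0.704) and POU2AF1 of the plasma cell list (-0.16 ± 0.34, edgeR adjusted p = 0.798) leaned down and did not pass. Outside the selection 2 genes of the B cell list and 1 of the plasma cell list were tested, and 0 were called in either direction.

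The lists differed in summed level. Without their members, natural killer and cytotoxic genes summed to 24, 30 and 38 counts in the controls and 187, 187 and 230 after FTO siRNA, and T cell genes to 399, 407 and 389 and then 743, 568 and 1033. Plasma cell and immunoglobulin constant-region genes other than members summed to 48, 45 and 37 counts and then 53, 84 and 93. For platelets and megakaryocytes the summed CPM was lower, 2.78 to 4.56 in the controls and 1.92 to 2.60 after FTO siRNA. For monocytes and macrophages the ranges overlapped, 51.6 to 101 and 67.6 to 93.4 CPM, as they did for granulocytes and for erythroid cells. In the monocyte list 15 of 28 genes were at 0 in every control and 5 in every library of both groups, in the granulocyte list 14 and 7 of 18, in the dendritic cell list 6 and 2 of 13 and in the erythroid list 5 and 1 of 13. Those at 0 in all 6 libraries included CD163, C1QA, C1QC and VSIG4 of macrophages, FCGR3B and MPO of granulocytes, CLEC9A of dendritic cells and GYPB of red cells, and SPI1, the PU.1 gene, had 2 counts in FTO siRNA 3 alone.

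Lists of other tissues held 217 genes, of which 1 was a member and 45 others were tested. Of these 14 rose, or 31.1% beside 7.53% of all genes, and 1 fell, with a median log2 fold change of 0.47. The filter mattered here too: 7 of the 45 had under 10 counts in every control and all 7 rose. Among the other 38 genes 7 rose (18.4%, beside 6.01% of all such genes and 16.7% in the blood and immune lists). Without a filter 16 of 180 did (8.89%, beside 3.56% of all genes). The count of 14 dropped to 6 of 51 without control 1 and to 6 of 49 without control 2. Shares of all genes called higher in these fits were 1.51% and 1.84%. The 14 genes came from 10 of 15 lists, such as 3 of 9 tested fibroblast genes and 1 of 6 squamous genes, KRT17, and in both lists 0 rose without control 1 or without control 2 (edgeR quasi-likelihood test; at an unadjusted p below 0.05, 3 fibroblast genes and 1 squamous gene in each of these fits).

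Relatives of the muscle and placenta members were among them. ACTC1, CKM, CGB5, ACTG2, MAGEC2 and KRT17, given here and below, had under 10 counts in every control. The calls of these genes are a description. ACTC1, cardiac actin, went from 1, 1 and 6 counts to 61, 60 and 43 (log2 fold change 4.23 ± 0.54, edgeR adjusted p = 0.00368). CKM, the creatine kinase of muscle, went from 3, 4 and 3 to 47, 24 and 41 (3.35 ± 0.45, edgeR adjusted p = 0.00426), while TTN, the giant sarcomere protein, fell from 1507, 1340 and 1225 to 327, 499 and 845 (-1.41 ± 0.26, edgeR adjusted p = 0.0128). TTN lost its call without control 1 or control 2 (highest adjusted p 0.0685).

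CGB5, the relative of CGB8, went from 0, 1 and 1 counts to 30, 21 and 14 (ratio 30.5, counting interval 8.11 to 257, edgeR adjusted p = 0.00337). Among smooth muscle and fibroblast genes beside ACTA2, ACTG2 went from 0, 0 and 1 counts to 20, 32 and 15 (ratio 62.9, counting interval 10.9 to 2521, edgeR adjusted p = 0.00563). COL1A1 went from 187, 162 and 382 to 688, 628 and 887 (log2 fold change 1.5 ± 0.30, edgeR adjusted p = 0.0168), a call lost without control 1 or control 2 (highest adjusted p 0.0922). COL3A1, its partner in connective tissue, had 36, 65 and 33 and then 46, 51 and 35 counts and did not pass (-0.09 ± 0.35, edgeR adjusted p = 0.894).

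Single genes of nerve, germ and squamous cells rose, 1 of 6 tested genes in the neuron list among them. GAD1, which makes the transmitter GABA, went from 4, 11 and 11 counts to 64, 48 and 83 (log2 fold change 2.79 ± 0.37, edgeR adjusted p = 0.00425). MAGEC2, a cancer-testis antigen, went from 7, 5 and 2 to 51, 43 and 98 (3.63 ± 0.46, edgeR adjusted p = 0.00404). KRT17 went from 1, 5 and 4 to 69, 32 and 27 (3.57 ± 0.65, edgeR adjusted p = 0.0121), a call lost without control 1 or control 2 (highest adjusted p 0.0677), while 10 of 30 genes of the squamous list were at 0 in every library.

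Many genes of cytokine and immediate early responses rose. None of those listed met the selection, but the NF-kB and interferon-gamma lists, like the selection, leave out the CC and CXC chemokines, of which 3 met the counts. Of 86 tested genes of the NF-kB, interferon, cytokine and immediate early lists 50 rose, or 58.1% beside 7.53% of all genes, and 0 fell at an adjusted p below 0.05 (edgeR quasi-likelihood test; 2 were lower at an unadjusted p below that value, and DESeq2 called 1 lower), with a median log2 fold change of 1.21. In the type I interferon list 6 of 17 rose, and its summed levels overlapped between the groups. The count of 50 dropped to 21 without control 1 and to 30 without control 2. Shares of all genes called higher in these fits were 1.51% and 1.84%. Of the 86, 8 had under 10 counts in every control, EBI3 and PSMB9 among them, and 7 of the 8 rose. Their calls are a description. Among the other 78 genes 43 rose (55.1%, beside 6.01% of all such genes). EBI3, a cytokine subunit induced by NF-kB, went from 3, 5 and 6 counts to 121, 73 and 147 (log2 fold change 4.47 ± 0.39, edgeR adjusted p = 0.00146), CSF3, the granulocyte growth factor, from 15, 27 and 17 to 189, 122 and 249 (3.13 ± 0.32, edgeR adjusted p = 0.00213), and PSMB9, an immunoproteasome subunit, from 1, 0 and 1 to 16, 15 and 29 (ratio 28.2, counting interval 7.46 to 238, edgeR adjusted p = 0.00233).

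Of 20 hepatocyte genes tested, 0 were called in either direction by the edgeR quasi-likelihood test, with a median log2 fold change of -0.21. At an unadjusted p below 0.05, 1 was higher and 2 lower, and DESeq2 called 0 higher and 1 lower, as did the fit without a filter. Without FTO siRNA 3, 9 of the 20 were called lower, beside 2152 of all 15290 genes tested in that fit. Summed CPM of the list ran from 26235 to 37202 in the controls and from 18866 to 32351 after FTO siRNA. The part of RNA from other cells, and the part of induction in HepG2, in the counts of the 50 genes was not tested.

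The limits of the selection were soft. At its lower edge 19 of the 50 genes had a lowest count of 5, and 22 further genes with no control count had a lowest count of 4, led by TAF4B (4, 9 and 23 counts), EMC10 (4, 5 and 19), PDIA2 (10, 4 and 14) and GRID1 (5, 4 and 18). KLRD1, of natural killer cells (4, 6 and 13), and RUNX3, a lymphoid transcription factor (5, 4 and 10), were also among them and are named here after their values were seen. Of the 50 themselves, KIF1A (5, 5 and 21 counts) and MRC2 (9, 5 and 31) sat at the same minimum with many more counts in FTO siRNA 3. With a minimum of 10 the rule kept 16 genes, 14 of them from the blood and immune groups, and 13 (81.3%) in the blood and immune lists. At a minimum of 5 that share was 34.0%, and at a minimum of 3 it was 26 of 123 genes, or 21.1%.

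On the control side, 59 genes had 1 or 2 counts over the 3 controls and otherwise met the rule. PAEP, glycodelin of the endometrium, had 2, 0 and 0 counts in the controls and 69, 24 and 107 after FTO siRNA. FCRLA, of B cells, had 1, 0 and 0 and then 17, 7 and 51. GNLY and CD52, described above, followed the same pattern, as did SLC4A3 (1, 1 and 0 counts, then 6, 9 and 54) and DMKN, a skin protein (0, 0 and 2, then 8, 8 and 52). Of these 6, PAEP, FCRLA, SLC4A3 and DMKN had most of their counts in FTO siRNA 3, and GNLY and CD52 did not.

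Shared sequence touched 15 of the 50 genes, with over 1% of their 50-base words in another gene, and 4 with over 50% (IGLC2, IGLC3, RFPL4A and CGB8). The other 35 included IGKC, TRAC, TYROBP, SRGN, GIMAP7, LCK, JCHAIN, IGHM and GZMA. In the opposite direction 1 gene was counted at 5 or more in every control and in no FTO siRNA library, the histone gene HIST2H2AA3 with 52, 65 and 62 counts. Its near-copy HIST2H2AA4 had 11, 4 and 6 counts in the controls and 1, 0 and 2 after FTO siRNA, and reads of such copies are uncertain.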

How the data were processed

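HepG2 total RNA (3 control siRNA and 3 FTO siRNA libraries) was isolated with Trizol, per the labels' protocols. The authors deposited raw counts per gene for each library. The tools TopHat2 2.0.11, TopHat and HTSeq appear, beside the builds GRCh37 and hg19, per the submitters' processing notes. Strand, multi-mapped reads and read length: not given in the sources used here. Of 60483 identifiers, 56753 matched GENCODE 29, used for names and gene types. Its build differs from the notes, so gene coordinates are not given.

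The all-gene test was that of edgeR 4.0.16 (R 4.3.3; filterByExpr, TMM, glmQLFit and glmQLFTest on the group, two-sided, Benjamini-Hochberg adjustment, threshold 0.05). DESeq2 1.42.0 was an alternative, with RLE factors, no filter, a replicate block, each library left out and other count minimums. Totals of 15713279 to 18390953 counts set the precision; floors of 3 counts and intervals cover counting error only. The steps were tested on simulated data, where 48% of 100 genes changed 2-fold and 91% of 100 changed 4-fold were called. Of 155 calls there, 16 were on unchanged genes. A gene that did not pass may therefore still have changed. Shared sequence is the share of 50-base words of a gene's longest transcript found in another gene; repeating the count of members without genes above 1% was added after seeing the data, as was the split of tested genes by 10 counts in the controls.

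The 50 genes, the 32 marker lists and the motifs were chosen with earlier results of these data known. Counts are given for FTO, the 12 members with most counts, members in a list, the 2 least even, up to 4 at each side of the minimum, up to 6 with 1 or 2 control counts and, of each list described, up to 3 non-members with the smallest p; other names were chosen after their values were seen.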

Additional observations from a re-analysis of the deposited data

How the results depend on the processing

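The number of genes that met the rule was 50. It was 123 with a minimum of 3 counts, 16 with a minimum of 10, 76 with at most 1 control count, 31 with the minimum applied after scaling to the lowest total, 35 without genes of over 1% shared words, and 58 to 87 with 1 library left out (87 without FTO siRNA 2). The mirrored rule gave 1. Of the 50 genes 15 were called higher, 48 with DESeq2, 50 without a filter and 15 to 19 with 1 library left out; DESeq2 and the fit without a filter tested members that the filter had left out. Of all genes 1132 were higher and 575 lower, against 1404 and 924 with DESeq2 and 236 to 2430 and 94 to 2152 with 1 library left out (lowest without control 1, highest without FTO siRNA 3). Blood and immune genes outside the rule called higher numbered 20, and 10 to 23 with 1 library left out; for other tissues it was 14, and 6 to 16. RLE factors kept each of these counts of called genes within 1.5 times. With the replicate number as a block 736 genes were higher and 305 lower, and the members, immune and tissue counts were 15, 16 and 13. The numbers do not pair the samples: same-numbered libraries had correlations of -0.138, -0.0643 and -0.248 of their deviations from the group means. The cause of these differences was not tested. Depth limits members with few counts: 19 of 50 had a lowest count of 5.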

Other observations

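Some relatives of the genes above were uneven over the FTO siRNA libraries, and they are given as values, chosen after they were seen. APOBEC3C, a relative of APOBEC3G, had 6, 1 and 4 counts in the controls and 33, 29 and 108 after FTO siRNA, and it rose (log2 fold change 3.77 ± 0.68, edgeR quasi-likelihood test, adjusted p = 0.0122), a call lost without control 1 or control 2 (highest adjusted p 0.0619). APOBEC3F had 4, 6 and 4 and then 5, 8 and 27 counts. ACTA1, skeletal muscle actin, had 1, 1 and 0 counts in the controls and 40, 14 and 3 after FTO siRNA, so that it was highest in FTO siRNA 1, where APOBEC3C was highest in FTO siRNA 3. CSF1R, a receptor of macrophages, had 1, 0 and 0 counts and then 2, 2 and 13.

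RFPL4B, a relative of RFPL4A that does not lie in the same cluster, was counted in every library, with 221, 247 and 251 counts in the controls and 457, 394 and 557 after FTO siRNA (log2 fold change 0.88 ± 0.15, edgeR quasi-likelihood test, adjusted p = 0.0114). Its call was lost without any 1 of the controls (highest adjusted p 0.0831). TAGLN, an actin-binding protein of smooth muscle, had 542, 908 and 1512 counts in the controls and 7489, 4593 and 1762 after FTO siRNA (2.21 ± 0.56, edgeR adjusted p = 0.0392), and it kept its call in 1 of 6 fits with 1 library left out (highest adjusted p 0.151).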
